A study of Zea mays with 18 samples.

Results

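The 5p arms of the maize miR167 family were followed along leaf 4 of seedlings of the hybrid ADA313, under warm and under chilled nights. All probe sets of the deposited array table whose name begins with zma-miR167 and ends in 5p were taken, which gave 10 of the 228 probe sets. Identical rows were counted once. The 10 members then formed 2 of the 147 distinct profiles, because zma-miR167a-5p, zma-miR167b-5p, zma-miR167c-5p and zma-miR167d-5p shared 1 set of values, and zma-miR167e-5p, zma-miR167f-5p, zma-miR167g-5p, zma-miR167h-5p, zma-miR167i-5p and zma-miR167j-5p shared another. They are called miR167a to miR167d and miR167e to miR167j here. The array therefore does not tell the members of a profile apart, and each profile counts as 1 measurement. Whether probes of 1 profile also bind miRNAs of the other was not tested, so the 2 may not be fully separate readings.

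A microRNA (miRNA) is a short RNA that guides an Argonaute protein to transcripts with a matching site, which in plants are usually cut. The precursor hairpin yields a 5p and a 3p arm, and for miR167 the 5p arm is the guide. In Arabidopsis, miR167 targets ARF6 and ARF8, auxin response factors that activate genes when auxin is present. The family is conserved in grasses, and its members have near-identical mature sequences. Auxin is a hormone of cell division and expansion, and in the grass leaf cells divide at the base, then elongate and then mature.

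There were 18 arrays in 6 groups of 3 biological replicates. Control seedlings had a 16 h day at 25 °C and an 8 h night at 20 °C, with 15000 lux and 70% relative humidity, and chilled seedlings differed in having nights at 4 °C. Leaf 4 of each treatment was divided into meristem, elongation zone and mature zone. The sources used here do not say how many nights were cold, how the zones were cut or whether seedlings were pooled, and no marker RNA of a zone was measured with which to check the zone labels.

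Values are the authors' average log2 signal of the 3 arrays of a group, so 1 unit is a doubling. Values of single arrays were not analysed here. The spread between arrays was recovered from the authors' ANOVA p-value of each probe set, and every SE, interval and adjusted p comes from the limma test built on it, with a threshold of 0.05 on the p adjusted by the Benjamini-Hochberg method over all 228 probe sets. The moderated SD within a group was 0.64 for the miR167a to miR167d profile and 0.41 for the miR167e to miR167j profile. Before moderation it was larger than in 79.6% and 57.1% of all profiles. In the authors' deposited table the ANOVA p over the 6 groups was 3.2e-05 for miR167a to miR167d and 8.08e-08 for miR167e to miR167j, which placed them at rank 40 and rank 11 of the 147 profiles. The table holds no ANOVA p above 0.040982, so every probe set in it, members included, had already passed a test for some difference among the groups.

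The miR167 5p arms were low in the meristem and high in the 2 zones above it, in warm and in cold nights. In control leaves the averages of miR167a to miR167d (zma-miR167a-5p and its 3 identical members) were 7.62 for the meristem, 10.78 for the elongation zone and 10.85 for the mature zone. Chilled leaves had 7.68, 11.02 and 10.86 from meristem to mature zone. The meristem averages stood apart at the bottom, and the 4 other averages lay within 0.24 of each other. The averages of miR167e to miR167j (zma-miR167e-5p and its 5 identical members) were 7.50, 10.45 and 11.49 along the control leaf. Along the chilled leaf they were 7.91, 10.98 and 11.54. Here too both meristem averages were the lowest, and in both treatments the mature zone had the highest value.

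**Figure D1:**
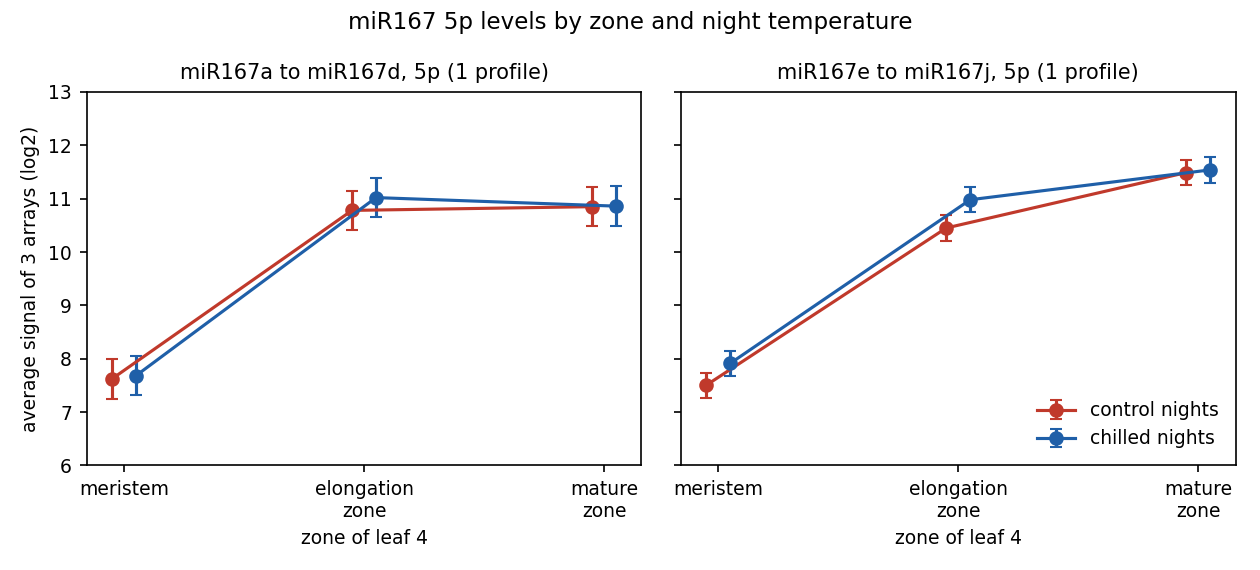
Average log2 signal of 3 arrays (vertical axis) by zone of leaf 4 for the 2 miR167 5p profiles, in control and chilled nights. Points are the authors' group averages and bars the SE recovered from the ANOVA p-value (0.37 on the left, 0.24 on the right). The meristem points lie between 7.50 and 7.91, and all other points between 10.45 and 11.54.

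From the meristem to the elongation zone, where cells stop dividing and expand, both profiles rose in both treatments. In control leaves miR167a to miR167d rose by 3.16 (SE 0.52, adjusted p = 0.000276), which is 8.94-fold with a 95% interval from 4.11 to 19.4. The miR167e to miR167j profile rose by 2.95 (SE 0.34, adjusted p = 8.63e-06), or 7.73-fold with an interval from 4.70 to 12.7. In chilled leaves the rise was 3.34 (SE 0.52, adjusted p = 0.000129) for miR167a to miR167d and 3.07 (SE 0.34, adjusted p = 6.23e-06) for miR167e to miR167j.

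Both of the 2 profiles were thus called higher in the elongation zone in each treatment, against a background of 24.5% of all distinct profiles in control leaves and 29.9% in chilled leaves. The median difference over all profiles was 0.05 in control and 0.13 in chilled leaves, so relative to it the control rises were 3.11 and 2.90. In control leaves the rises had the ranks 6 and 8 from the top among the 147 profiles. The direction of the calls over the whole table depended on the scaling between groups: 67.9% of the profiles called in control leaves were higher as deposited and 39.5% with quantile normalization. In chilled leaves these shares were 66.7% and 42.6%, while both miR167 5p rises passed under each scaling tried. Here and below, each scaling changed the 6 group averages and kept the SDs recovered from the deposited values. Single arrays were not rescaled, so the adjusted p-values under a scaling do not measure the spread between rescaled arrays.

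Between the elongation and the mature zone, where growth ends, only the control step of miR167e to miR167j passed as deposited. The profiles were not tested against each other. In control leaves miR167e to miR167j rose by 1.04 (SE 0.34, adjusted p = 0.0193), or 2.06-fold with a 95% interval from 1.25 to 3.38. Its size depended on the scaling, at 2.11 with quantile normalization and 2.33 with median subtraction. This call was lost when the recovered SD was enlarged 1.3 times (adjusted p = 0.0785). The miR167a to miR167d profile differed by 0.07 (SE 0.52, adjusted p = 0.899), and its interval ran from -1.05 to 1.19. In chilled leaves neither profile passed, with differences of 0.56 for miR167e to miR167j (SE 0.34, adjusted p = 0.158) and -0.16 for miR167a to miR167d (SE 0.52, adjusted p = 0.830).

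Most profiles moved the other way here. In control leaves 7.48% of all distinct profiles were called higher and 46.3% lower in the mature zone, and in chilled leaves 12.9% were called higher and 58.5% lower. The median over all profiles was -0.59 in control and -0.86 in chilled leaves. Relative to it miR167a to miR167d stood at 0.66 and 0.70, and miR167e to miR167j at 1.63 and 1.42. The control difference of miR167e to miR167j had rank 2 from the top among the 147 profiles, behind the 3p arm of miR167g of the same family. Of the profiles called, 13.9% were higher in control leaves as deposited, 58.0% with quantile normalization and 79.3% with median subtraction, and in chilled leaves these shares were 18.1%, 57.6% and 95.1%. With quantile normalization miR167e to miR167j passed in chilled leaves as well (1.22, adjusted p = 0.00910), and with median subtraction both profiles passed as higher in the mature zone of both treatments.

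Taking meristem and mature zone alone, both profiles rose in both treatments. In control leaves miR167e to miR167j rose by 3.99 (SE 0.34, adjusted p = 1.75e-07), or 15.9-fold with an interval from 9.65 to 26.2. The miR167a to miR167d profile rose by 3.23 (SE 0.52, adjusted p = 0.000137), or 9.38-fold with an interval from 4.32 to 20.4. In chilled leaves the rises were 3.63 (SE 0.34, adjusted p = 3.39e-07) and 3.18 (SE 0.52, adjusted p = 0.000116). Their size depended on the scaling: with median subtraction over probe sets they were 7.32 and 6.87, and over distinct profiles 5.31 and 4.86. The background of profiles called higher was 14.3% in control and 25.2% in chilled leaves.

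Among the 147 profiles the control rises of miR167e to miR167j and miR167a to miR167d had the ranks 2 and 3 from the top, with miR396c/d first. The median over all profiles was -0.35 in control leaves and -0.39 in chilled leaves. Of the profiles called, 26.6% were higher in control leaves as deposited, 48.4% with quantile normalization and 77.1% with median subtraction, against 34.9%, 47.6% and 90.8% in chilled leaves. By level, miR167e to miR167j stood at rank 40 of 147 in the control meristem and at rank 5 in the control mature zone, and miR167a to miR167d at rank 39 and rank 12. Signals of different probes depend on probe affinity, so these ranks order signals and not amounts.

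**Figure D2:**
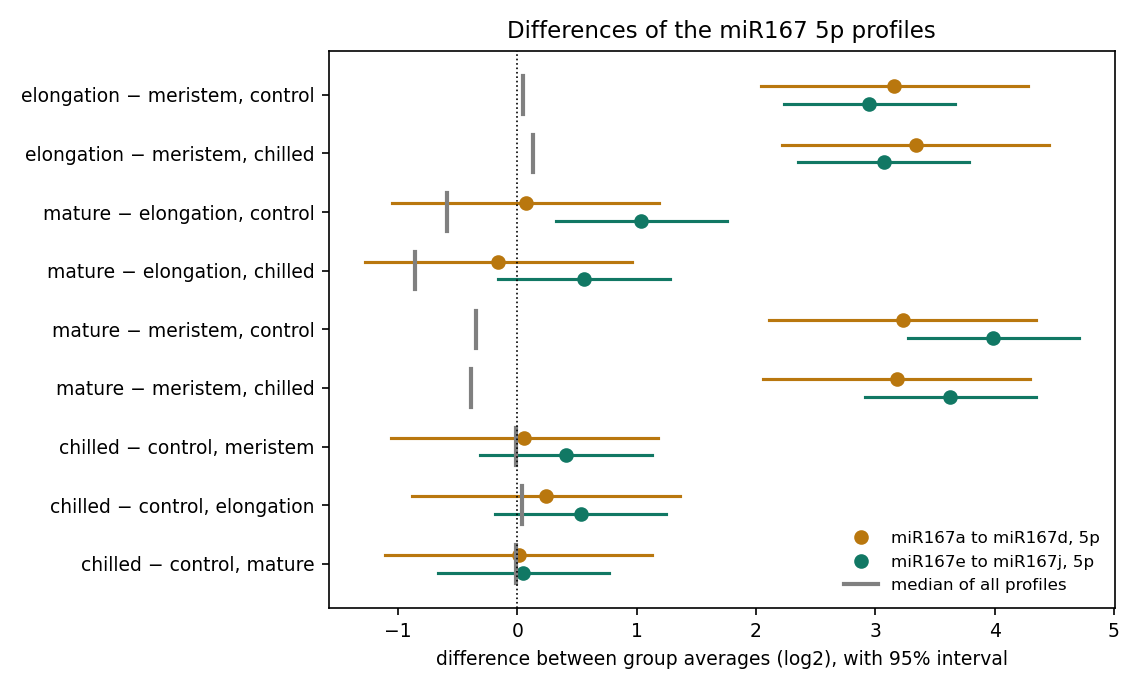
Differences between group averages on the log2 scale (horizontal axis) for the 2 miR167 5p profiles in the 6 zone comparisons and the 3 chilling comparisons, with 95% intervals. Grey bars mark the median difference of all 147 profiles. The intervals of the rises from the meristem lie above 0, those of the 3 chilling comparisons include 0, and between elongation and mature zone that of miR167e to miR167j in control leaves lies above 0.

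With the values as deposited, no difference between chilled and control leaves passed the threshold in either profile. In the meristem miR167a to miR167d differed by 0.06 between chilled and control leaves (SE 0.52, adjusted p = 0.963) and miR167e to miR167j by 0.41 (SE 0.34, adjusted p = 0.688). In the elongation zone the differences were 0.24 (SE 0.52, adjusted p = 0.832) and 0.53 (SE 0.34, adjusted p = 0.491). In the mature zone they were 0.01 (SE 0.52) and 0.05 (SE 0.34), each with an adjusted p of 1. All 6 differences were above 0 as deposited, and that of miR167a to miR167d in the meristem was -0.36 with quantile normalization.

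By the limma test 0 of the 2 profiles were called in any zone as deposited, and 0 had an unadjusted p under 0.05. The background of calls in either direction was 5.44% of distinct profiles in the meristem, 1.36% in the elongation zone and 14.3% in the mature zone. After quantile normalization the elongation zone difference of miR167e to miR167j was 0.90 (limma test, unadjusted p = 0.0181, adjusted p = 0.220). The data do not show that the levels were equal. For miR167e to miR167j the 95% intervals of the chilled to control ratio ran from 0.807 to 2.19 in the meristem, from 0.877 to 2.38 in the elongation zone and from 0.629 to 1.70 in the mature zone. For miR167a to miR167d they ran from 0.480 to 2.27, from 0.543 to 2.57 and from 0.463 to 2.19.

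Scaling moved the chilling differences of both profiles most in the mature zone. In the meristem and the elongation zone neither profile passed under any scaling tried. The median over all probe sets fell from 4.59 in the control mature zone to 2.18 in the chilled mature zone, while the median over distinct profiles was 1.68 and 1.55. After subtraction of the probe set median both profiles passed as higher in the chilled mature zone, by 2.42 for miR167a to miR167d (adjusted p = 0.000512) and 2.46 for miR167e to miR167j (adjusted p = 7.88e-06), as did 133 of the 147 profiles, and none was called lower. After subtraction of the median over distinct profiles, an alternative added after seeing the data, neither profile passed. As deposited, 33.3% of the profiles called in the mature zone were higher under chilling, against 57.9% with quantile normalization.

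With the values as deposited, no difference between zones in the chilling effect passed for the miR167 5p arms. The effect in the mature zone minus that in the elongation zone was -0.48 (SE 0.47, adjusted p = 0.748) for miR167e to miR167j and -0.23 (SE 0.74, adjusted p = 0.931) for miR167a to miR167d. This is also the test of whether the step from elongation to mature zone differed between treatments, so the rise of miR167e to miR167j that passed in control leaves and not in chilled leaves was not shown to differ between them. The moderated F test over the zones gave an adjusted p of 0.772 for miR167e to miR167j and 0.974 for miR167a to miR167d, with 7.02% of the 228 probe sets called. For the difference between mature and elongation zone 3.4% of the distinct profiles were called. With median subtraction over probe sets this difference turned to 1.91 for miR167e to miR167j (adjusted p = 0.00207) and 2.16 for miR167a to miR167d (adjusted p = 0.0142), both past the threshold, as were 121 of the 147 profiles.

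**Figure D3:**
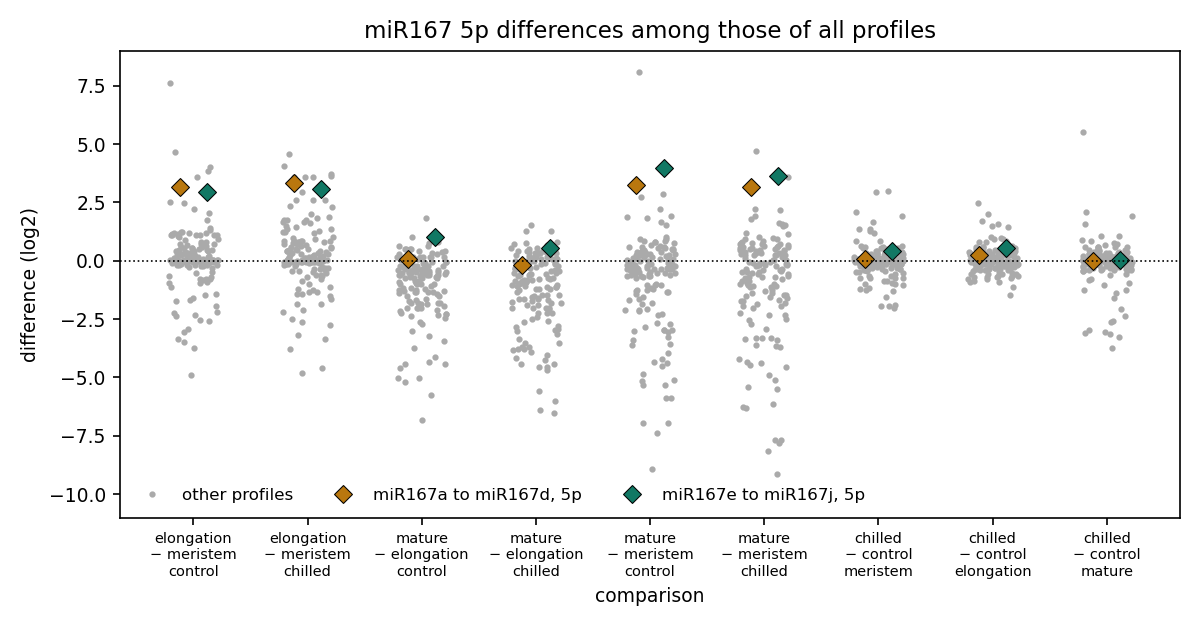
Differences on the log2 scale (vertical axis) of all 147 distinct profiles in the 6 zone and 3 chilling comparisons, with 1 grey point per profile spread sideways for legibility and the 2 miR167 5p profiles as diamonds. The diamonds lie near the top in the comparisons with the meristem, where the control rises from meristem to mature zone are 3.23 and 3.99, and among the grey points in the chilling comparisons.

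The order of the 6 averages was not the same in the 2 profiles. For miR167e to miR167j it ran from the chilled and control mature zone through the chilled and control elongation zone to the chilled and control meristem. Of the 5 gaps between neighbours in this order only the one between the control elongation zone and the chilled meristem passed, at 2.54 (SE 0.34, adjusted p = 3.96e-05). For miR167a to miR167d the chilled elongation zone came first, followed by the chilled and control mature zone, the control elongation zone and the chilled and control meristem. Again only the gap above the meristem passed, at 3.10 (SE 0.52, adjusted p = 0.000263), and the other 4 gaps were between 0.01 and 0.16.

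The distance between the averages of the 2 profiles was not the same in all zones, which was described and not tested. In the mature zone miR167e to miR167j lay above miR167a to miR167d by 0.64 in control and 0.68 in chilled leaves, whereas in the elongation zone it lay below by 0.33 and 0.04. In the meristem it lay below by 0.12 in control and above by 0.23 in chilled leaves. Levels of the 2 profiles come from different probes, so only the change of this distance can be read. By the elongation zone miR167a to miR167d had reached 97.8% of its control rise from meristem to mature zone, and miR167e to miR167j 73.9%. No interval was computed for these shares. The 2 profiles sit on the same arrays, and their covariance is unknown, so their differences were set beside the sum of both SEs, the largest SE that any correlation allows, without a test. That sum is an SE and not a threshold. The step from elongation to mature zone in control leaves was larger in miR167e to miR167j by 0.97, against a sum of SEs of 0.86. In chilled leaves this step was larger by 0.72, and the rise from meristem to mature zone by 0.76 in control and 0.45 in chilled leaves, all below that sum. The 3 chilling differences were apart by 0.35, 0.29 and 0.04, below it too. Over the 6 averages Pearson's r between the profiles was 0.97, a description of 6 points that share arrays. Binding of probes across the profiles was not tested.

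All 10 members matched a miRNA gene of the RefSeq table (assembly Zm-B73-REFERENCE-NAM-5.0) by name. In it MIR167a and MIR167g have 1 gene between them, LOC100381792, although their 5p arms fall in different profiles. No coordinates of these genes are given.

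The 3p arms of the family, usually the passenger strands, gave lower signals than the 5p arms in every group, with other probes. There were 7 of them in 6 profiles. No average of miR167c 3p, miR167f 3p or the profile of miR167h/i 3p was above 2.06, and the highest of miR167g 3p was 2.90. The miR167d 3p arm went from 3.99 through 7.82 to 0.99 along the control leaf. It rose from meristem to elongation zone (3.83, SE 0.65, adjusted p = 0.000298) and fell from there to the mature zone (-6.83, SE 0.65, adjusted p = 1.62e-06), where the miR167a to miR167d 5p profile stood at 10.85. The miR167e 3p arm was at 1.09, 2.83 and 3.00 in control leaves and at 1.19, 4.84 and 2.82 in chilled leaves. It was the 1 profile of the family called between chilled and control leaves within a zone. It was higher in the chilled elongation zone (2.01, SE 0.42, adjusted p = 0.0325), where 1.36% of all profiles were called. With quantile normalization its difference was 1.07 and did not pass (adjusted p = 0.223). For miR167g 3p the chilling effect differed between zones. The effect in the mature zone minus that in the elongation zone was -1.72 (SE 0.38, adjusted p = 0.0277), a comparison in which 3.4% of all profiles were called.

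Rows of 4 families whose guide arms act on auxin signalling were compared. These were miR160, which targets another class of auxin response factors, miR167, miR390, which triggers small RNAs from TAS3 transcripts against further response factors, and miR393, which targets the TIR1/AFB auxin receptors. The list holds 19 distinct profiles, of which 17 are not miR167 5p. Most of the 17 are 3p arms, usually the passenger strands, and only 1 miR390 and 2 miR393 profiles are 5p arms. The counts below therefore mainly describe 3p arms. From meristem to elongation zone in control leaves 7 of these 17 rose, 3 fell and 7 did not pass, with a median difference of 0.30, against 24.5% higher and 11.6% lower and a median of 0.05 over all distinct profiles. With quantile normalization the counts were 3 higher and 3 lower, and with median subtraction over distinct profiles 5 and 3. From the control meristem to the control mature zone 4 rose and 9 fell, with a median of -0.64, against 14.3% higher and 39.5% lower and a median of -0.35 over all profiles. This balance turned with scaling, to 9 higher and 6 lower with median subtraction over probe sets and 9 and 5 over distinct profiles, against 6 and 9 with quantile normalization. Under chilling 0 of 17 passed in the meristem by limma, with 3 at an unadjusted p under 0.05, against 8 of all 147 profiles called (5.44%) and 19 at an unadjusted p under 0.05. With quantile normalization 2 of the 17 were higher and 2 lower in the meristem, against 15 of all 147 profiles called. As deposited, the elongation zone had 1 higher, the miR167e 3p arm (0.68% of all profiles), and the mature zone 3 lower (9.52% of all profiles). With median subtraction over probe sets 15 of the 17 were instead called higher in the mature zone and 0 lower, as were most profiles of the table, and with quantile normalization 1 was higher and 1 lower.

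Of the 5p guide arms of this list, miR390a/b stood at 11.50, 11.45 and 9.82 along the control leaf. It fell from elongation to mature zone by 1.63 as deposited (SE 0.21, adjusted p = 3.67e-05), the step at which the miR167e to miR167j profile rose, but the call was lost with both median subtractions, where its difference was -0.35 (probe sets) and 0.13 (distinct profiles). The miR393a/c 5p profile was at 6.33, 7.64 and 6.91 in control leaves and at 6.37, 7.75 and 7.96 in chilled leaves. It rose from meristem to elongation zone by 1.31 in control leaves (SE 0.47, adjusted p = 0.0328). The miR393b 5p arm was at 5.99, 7.19 and 6.44 in control leaves, where its difference of 1.20 did not pass (SE 0.54, adjusted p = 0.0883), and in chilled leaves it rose by 1.73 (SE 0.54, adjusted p = 0.0148). After subtraction of the median over distinct profiles neither rise passed, with 1.20 for miR393a/c (adjusted p = 0.0529) and 1.18 for miR393b in chilled leaves (adjusted p = 0.0796). From meristem to mature zone in chilled leaves miR393a/c rose by 1.59 (SE 0.47, adjusted p = 0.00820) and miR393b by 1.79 (SE 0.54, adjusted p = 0.00947). These 2 rises passed under each scaling tried. In control leaves the same differences were 0.58 (adjusted p = 0.274) and 0.45 (adjusted p = 0.459). They did not pass as deposited but passed as higher under each scaling. The miR160 family is represented by 3p arms only, and its 5p guide arms were not analysed here.

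**Figure D4:**
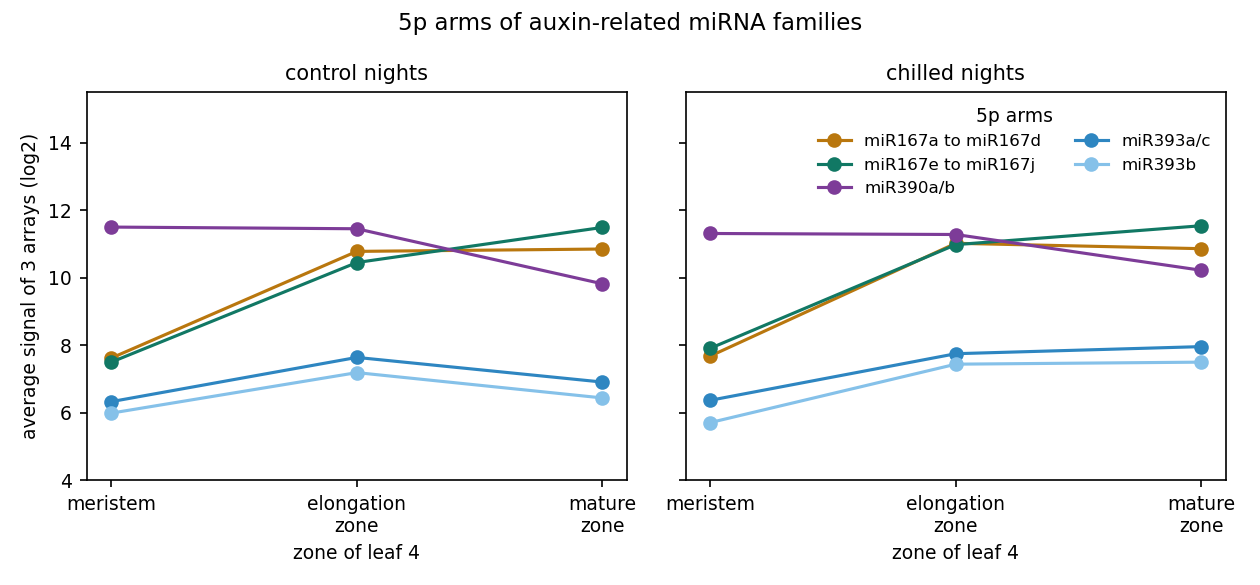
Average log2 signal of 3 arrays (vertical axis) of the 5p arms of miR167, miR390 and miR393 in the 3 zones of leaf 4, in control nights on the left and chilled nights on the right. Each line is 1 distinct profile. Both miR167 lines climb from below 8 in the meristem to above 10 in the other zones, while the miR390a/b line goes from 11.50 to 9.82 in control leaves.

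Likeness to other miRNAs was described by Pearson's r over the 6 averages, which share arrays and are few, among 145 other profiles. The profile most like both was miR396c/d, of a family that targets growth-regulating factors, with r = 0.96 to each. Its averages spanned 8.10, from 3.70 in the control meristem to 11.80 in the control mature zone, while those of the miR167 5p profiles spanned 3.40 and 4.04. In the chilled meristem miR396c/d stood at 6.70, whereas the miR167 5p profiles differed between treatments there by 0.06 and 0.41. Next for miR167a to miR167d came miR156k 5p (r = 0.96), a miR395 3p profile shared by miR395c, miR395l and miR395m (0.95), the main miR156 5p profile (0.94) and miR393c 3p (0.92). For miR167e to miR167j they were miR396e/f 5p (0.92), with no average above 1.71, the same miR395 3p profile (0.90), miR156k 5p (0.90) and the main miR156 5p profile (0.88). The averages of the 2 miR156 profiles spanned 0.84 and 0.86, so their likeness is one of shape and not of size.

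At the other end, miR172e, whose family acts on AP2-type transcription factors, ran opposite to the miR167 5p arms, from 11.01 in the control meristem to 8.19 in the control mature zone (r = -0.97 with miR167a to miR167d and -0.99 with miR167e to miR167j). The miR159a 5p arm did so as well, from 4.81 to 1.22 (r = -0.99 with each). The third was miR159c/d 3p for miR167a to miR167d (r = -0.95) and miR529 5p for miR167e to miR167j (r = -0.98). The median r over the 145 profiles was -0.04 for miR167a to miR167d and -0.18 for miR167e to miR167j.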

How the data were processed

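Per the labels' protocols, total RNA was extracted with Trizol and biotin-labelled with the FlashTag HSR kit. Per the submitters' processing notes, Affymetrix Expression Console was used. Its version, background correction and normalization were not given in the labels or headers. The authors deposited, per the file headers, bi-weight averages in log2 units for the 6 groups, with an ANOVA p-value and an FDR p-value per probe set. No values of single arrays were used.

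The residual variance of each probe set was recovered by turning the ANOVA p-value back into F (5 and 12 degrees of freedom, 3 arrays a group) and dividing the variance between the averages by it. It was moderated with squeezeVar of limma 3.58.1 in R 4.3.3 (prior degrees of freedom 1.94, total 13.9), and contrasts were tested two-sided, with Benjamini-Hochberg adjustment over all 228 probe sets within a contrast. This treats bi-weight averages as means and the 6 groups as equally variable. Because the table holds only probe sets that passed an ANOVA limit, the false discovery rate is only approximately controlled. On data simulated for chilling in the elongation zone (2711 miRNAs kept), changes of 1, 2 and 3 units were called in 62.6%, 92.9% and 95.5% of cases, with 4.09% false calls. The simulation makes the same assumptions. It changed 195, 196 and 198 of the kept miRNAs by 1, 2 and 3 units, a far larger share than the 1.36% of profiles called here. The adjustment is stricter where fewer miRNAs change, and the simulated SDs came from all profiles. These percentages are therefore not the power for the miR167 5p profiles.

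The labels call the arrays biological replicates, so p-values reflect the spread between these. Precision is limited by 3 arrays a group. Members and lists were chosen with earlier results of these data known. Named miRNAs are all members, the 5 most and 3 least alike profiles by Pearson's r, the 3p arms of the family and the 5p arms of the auxin list. The miR160 5p arms and mature sequences were not used here.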

Additional observations from a re-analysis of the deposited data

How the results depend on the processing

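The rises from the meristem to the elongation zone and to the mature zone passed in both profiles and both treatments under all 10 alternatives, though the median subtractions enlarged the rise to the mature zone, to 5.41 and 5.64 in control and 7.32 and 5.31 in chilled leaves for miR167e to miR167j, and to 4.65 and 4.88 and 6.87 and 4.86 for miR167a to miR167d. The control rise of miR167e to miR167j from elongation to mature zone was 1.04 with an adjusted p of 0.0785 with the recovered SD enlarged 1.3 times, and passed under the other 9. Scaling, applied to the group averages with the SDs recovered before it, also moved the other comparisons. With quantile normalization the step from elongation to mature zone in chilled leaves was 1.22 for miR167e to miR167j, now past the threshold, and 0.011 for miR167a to miR167d, whose chilling difference in the meristem was -0.36 and whose mature minus meristem chilling effect was 0.38. With median subtraction over probe sets, the step from elongation to mature zone was 1.36 (miR167a to miR167d, control), 3.51 (the same, chilled) and 4.23 (miR167e to miR167j, chilled), and the chilling difference in the mature zone 2.42 and 2.46. The mature minus elongation chilling effect was then 2.16 and 1.91, and the mature minus meristem one 2.22 and 1.91, for miR167a to miR167d and miR167e to miR167j, all 4 past the threshold. With median subtraction over distinct profiles, added after seeing the data, the step from elongation to mature zone was 1.83, 2.07 and 2.79 in the same 3 cases. For miR167a to miR167d the chilling difference in the elongation zone was then -0.10 and the chilling effects elongation minus meristem and mature minus elongation -0.26 and 0.24, and for miR167e to miR167j the former was -0.32. The cause was not tested.

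Counts of distinct profiles past the threshold ran, for chilling, from 1 to 15 around 8 in the meristem, from 1 to 19 around 2 in the elongation zone and from 15 to 133 around 21 in the mature zone. For the zones of control leaves they ran from 29 to 57 around 53 (elongation against meristem), from 49 to 96 around 79 (mature against elongation) and from 60 to 120 around 79 (mature against meristem), and for chilled leaves from 51 to 88 around 66, from 66 to 122 around 105 and from 78 to 131 around 106. For the chilling effect between zones they ran from 0 to 121 around 5 (mature minus elongation) and from 0 to 126 around 11 (mature minus meristem). No paired analysis was possible because the table gives group averages and no single arrays, and for the same reason leaving out a replicate was not run.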

Other observations

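The gap between the 5p and 3p signals of one gene name was not constant along the leaf. Only its change between groups can be read, since the arms have different probes. From meristem to mature zone the gap of miR167d was 3.63, 2.96 and 9.86 in control leaves and 3.84, 3.59 and 9.95 in chilled leaves. For miR167e it was 6.41, 7.62 and 8.49 in control leaves and 6.72, 6.14 and 8.72 in chilled leaves. Some 3p values behind these gaps were low, at 0.99 for miR167d in the control mature zone and 1.09 for miR167e in the control meristem. The 3p arms of miR167c, miR167f, miR167h and miR167i had no average above 2.06, so their gaps, not given here, mainly followed the 5p signal. The 5p value is shared with the other members of its profile, and these gaps were not tested.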
